A study of Mus musculus with 12 samples.

Results

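The genes described here are 6 Fgf ligands (*Fgf3*, *Fgf4*, *Fgf5*, *Fgf8*, *Fgf10* and *Fgf15*) and the 4 Fgf receptor kinases *Fgfr1*, *Fgfr2*, *Fgfr3* and *Fgfr4*. They were chosen by name, as every probe whose gene name on the array is one of these 10, and not by their signals. They were read by 18 of 55681 probes, 10 of 34836 gene names. Mouse ES cells carrying Gata6GR, a fusion of mouse Gata6 with the ligand-binding domain of the human glucocorticoid receptor, were profiled on 12 one-colour Agilent arrays, 3 for each of 4 groups. In each of 2 genotypes, *Sox7* (+/−) and *Sox7* (−/−), ES cells without dexamethasone (Dex) were set beside the XEN-like cells that 4 days of Dex gave. XEN-like cells resemble the extraembryonic endoderm stem cells of the embryo, and Dex drives their formation here by moving Gata6GR into the nucleus.

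All 4 groups carried Gata6GR, descended from the EB3 ES line and were kept in medium with LIF on gelatin without feeder cells. In *Sox7* (+/−) cells 1 copy of the whole *Sox7* coding sequence was replaced by a PGK-pacΔTK cassette, which gives puromycin resistance. The *Sox7* (−/−) line was picked from these cells after high-dose puromycin, so that each genotype is 1 clonal line. Effects of *Sox7* loss and of the clone or its selection therefore cannot be told apart. No Dex-treated cells without Gata6GR were analysed here, so effects of Dex itself and of Gata6GR cannot be told apart. Nothing in the sources used here says that replicates were separate cultures, and for the *Sox7* (+/−) ES arrays the sources and titles number the replicates differently. The p-values therefore measure the spread between these arrays, which may be technical.

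Fgf ligands are secreted proteins that bind heparan sulfate and receptor tyrosine kinases, which signal through the adaptor Frs2, Ras and the kinase ERK. In the blastocyst, Fgf4 from the epiblast acts on Fgfr1 and Fgfr2 in neighbouring cells and directs them to primitive endoderm. ERK activity is commonly read from its own feedback genes, such as the Sprouty and Dusp genes and the Etv transcription factors. The comparisons ask how the ligands, receptors and these genes differed before and after Gata6GR activation, and whether that differed between the *Sox7* (+/−) and *Sox7* (−/−) lines.

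*Fgf3*, *Fgf4* and *Fgf15* lie next to each other on chromosome 7, and their probes span 59.8 kb (mm9). The *Fgf4* probe lies at 152051089 to 152051148. The *Fgf3* probe covers 152026667 to 152028526 and crosses a splice junction, and the *Fgf15* probe lies at 152086371 to 152086430. The other brightest probes lie on chromosomes 5 (*Fgf5* at 98705980 to 98706039, *Fgfr3* at 34079649 to 34079708), 7 (*Fgfr2* at 137307473 to 137307532), 8 (*Fgfr1* at 26685072 to 26685131), 13 (*Fgf10* at 119580365 to 119580424, *Fgfr4* at 55270033 to 55270092) and 19 (*Fgf8* at 45811355 to 45811414). Of the 18 probes 5 are printed below because related Fgf genes share sequence, and a probe must tell them apart. They were taken to be coding from their reading frames, and no annotation was used. The capitals in the *Fgfr1* and *Fgfr4* probes mark the bases that are the same when these 2 are aligned, 35 of 58, with no identical run longer than 9 bases.
Fgf3 probe: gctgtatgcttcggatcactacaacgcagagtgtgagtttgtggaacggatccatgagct
Fgf8 second probe: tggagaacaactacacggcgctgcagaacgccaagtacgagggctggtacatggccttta
Fgfr1 dimmest probe: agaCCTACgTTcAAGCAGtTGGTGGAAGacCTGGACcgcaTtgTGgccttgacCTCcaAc
Fgfr3 second probe: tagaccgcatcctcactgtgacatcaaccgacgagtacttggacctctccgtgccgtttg
Fgfr4 second probe: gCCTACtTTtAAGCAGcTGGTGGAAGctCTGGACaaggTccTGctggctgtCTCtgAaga
The signals of these *Fgfr1* and *Fgfr4* probes moved in opposite directions, as given below.

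Promoter sequence is shown for *Fgf3* and *Fgf4*, neighbours whose signals moved in opposite directions. The 250 bases before the RefSeq start (build GRCm38.p6, which is not the build of the probe positions) were searched for the Gata hexamers AGATAA (and, with the same core, AGATAG), then TGATAA (and likewise TGATAG), on both strands, marked in capitals.
Fgf3 promoter, chr7:144838362-144838611, plus strand: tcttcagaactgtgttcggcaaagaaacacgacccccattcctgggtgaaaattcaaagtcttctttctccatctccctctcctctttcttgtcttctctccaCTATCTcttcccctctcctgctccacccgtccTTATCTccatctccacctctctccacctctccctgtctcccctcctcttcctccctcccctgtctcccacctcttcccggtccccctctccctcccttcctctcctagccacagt
Fgf4 promoter, chr7:144861136-144861385, plus strand: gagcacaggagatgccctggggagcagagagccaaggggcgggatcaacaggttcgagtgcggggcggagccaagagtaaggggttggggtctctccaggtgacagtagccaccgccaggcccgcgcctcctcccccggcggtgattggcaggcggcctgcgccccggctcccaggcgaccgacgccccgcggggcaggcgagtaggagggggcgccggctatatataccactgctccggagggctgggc
The *Fgf3* window held 2 such hexamers and the *Fgf4* window none. Of all 32851 promoter windows of this length, 26.5% held at least 1. RefSeq windows were matched for 7 of the 10 genes, 8 windows in all counting both of *Fgfr3*, and the *Fgf3* window was the only one of these 8 with a hexamer. A match is a description of letters and not a binding site.

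Signals are given as percent of each array's 75th percentile, the scale on which arrays were made comparable, and levels are compared only within a probe. The test took in probes that all 3 arrays of some group had well above background, which left 16 of the 18 Fgf probes and all 10 genes. Both probes left out, the dimmest of *Fgf8* and of *Fgfr3*, were well above background in no group as a whole. Differences are log2 differences from limma, fitted on 25938 probes, and a gene is called where the Benjamini-Hochberg adjusted p is under 0.05 and the change over 2-fold. A gene is read by its brightest tested probe unless another is named. A probe that none of a group's 3 arrays had well above background has only a bound there, written "at least N-fold" and taken against the lowest well-measured signal of those arrays. In such bulk RNA, fewer cells of a type and less RNA per cell cannot be told apart.

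The 75th percentile was 252.3 to 415.9 intensity units, 41.7% to 52.3% of spots were well above background, and replicates correlated at 0.982 to 0.996. The low end was replicate 3 of the *Sox7* (+/−) XEN-like cells, at 0.983 and 0.982 with replicates 1 and 2, which correlated at 0.994. *Sox7* was below background on all 6 *Sox7* (−/−) arrays and well above it on the other 6. Of 7 ES cell markers, *Nanog* and *Sox2* were below background in both XEN-like groups. In the Dex responses 5 of the 7 fell in *Sox7* (+/−) cells and 6 in *Sox7* (−/−) cells, and only *Klf4* rose, in *Sox7* (+/−) cells (1.46). Of 11 primitive endoderm markers 8 rose and none fell in each genotype, led by *Sox17* (2.46) in *Sox7* (+/−) and *Col4a1* (3.14) in *Sox7* (−/−) cells. Before Dex all 11 were already well above background, except *Sox7* in the line without it. Their sum was then 144665% to 148949% with 1 copy of *Sox7* and 118054% to 126441% with none. After Dex it was 287395% to 319503% and 262086% to 273162%. The part of endoderm-like cells in the Fgf signals before Dex was not tested. The summed ES marker signal was 45509% to 48755% in *Sox7* (−/−) ES cells and 21621% to 22785% in *Sox7* (+/−) ES cells. This sum adds different probes and leans on bright ones such as *Esrrb*, at 17915% to 20241% and 7563% to 7979%. Taken singly, 3 of the 7 were called higher in *Sox7* (−/−) ES cells and none lower, where 1.97% and 6.63% of all genes were. The arrays lay on 2 slides. Slide 2 carried every *Sox7* (−/−) ES array together with replicate 1 of the *Sox7* (−/−) XEN-like cells, and the other 8 arrays were on slide 1.

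Across both Dex responses, 8 of the 10 Fgf genes were called in both genotypes, each in the same direction. Among the ligands, *Fgf4*, *Fgf5* and *Fgf15* fell and *Fgf3* and *Fgf10* rose in both. Among the receptors, *Fgfr1* fell and *Fgfr3* and *Fgfr4* rose in both. In *Sox7* (+/−) cells 9 of 10 were called (4 up, 5 down), where 25.1% of all 18991 genes tested were (11% up, 14.1% down). In *Sox7* (−/−) cells 8 of 10 were called (4 up, 4 down), against 28.7% of all genes (14.6% up, 14.1% down). The *Sox7* (−/−) response partly coincides with the slide, since its ES arrays and only replicate 1 of its XEN-like arrays were on slide 2. With the slide as a block 9 of 10 were called there (4 up, 5 down), beside 27.5% of all probes. The median log2 difference of the 10 genes was −1.71 in *Sox7* (+/−) and −0.56 in *Sox7* (−/−) cells, beside 0.16 and 0.07 over all genes. The remaining genes were *Fgfr2*, under 2-fold by its brightest probe in both, and *Fgf8*, called in *Sox7* (+/−) cells alone.

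**Figure D1:**
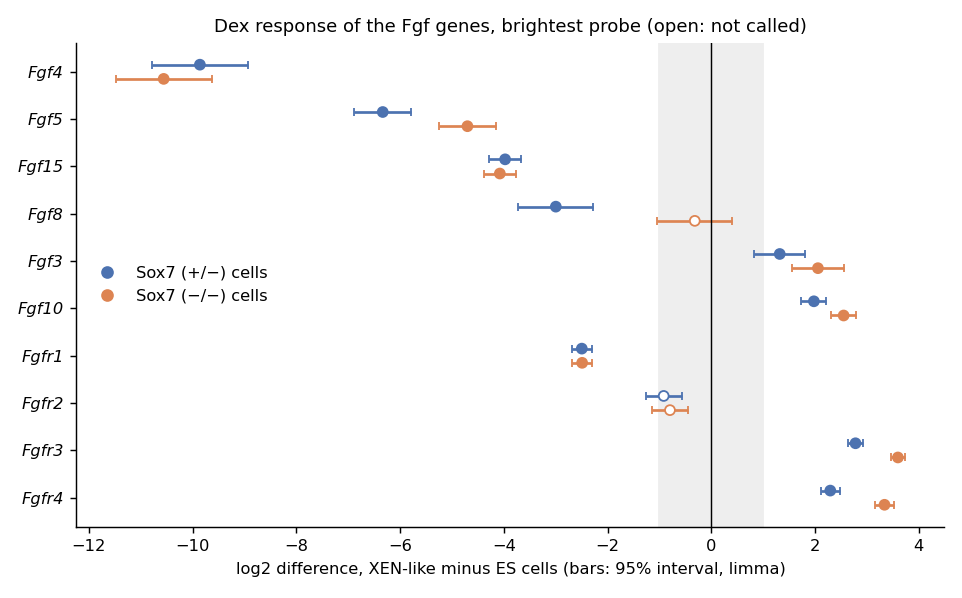
Log2 difference between XEN-like and ES cells for the brightest probe of each Fgf gene, with 95% intervals from limma (3 arrays per group). Filled points are called, open points are not, and the grey band marks changes under 2-fold. *Fgf4*, *Fgf5* and *Fgf15* were below background in the XEN-like groups, so the sizes of their falls are not measured, and *Fgf8* stands apart between the genotypes (−3.00 and −0.32).

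*Fgf4*, the epiblast ligand for primitive endoderm, had a strong signal in ES cells and was not detected after Dex. Its signal was 3772%, 3765% and 3916% on the *Sox7* (+/−) ES arrays and 3.33%, 2.95% and 7.06% on the XEN-like arrays of that genotype. On the *Sox7* (−/−) arrays it was 5550%, 5798% and 5460% in ES cells and 5.92%, 1.84% and 4.71% in XEN-like cells. All 6 ES arrays were well above background and all 6 XEN-like arrays below it. The signal fell at least 349-fold in *Sox7* (+/−) cells (adjusted p = 1.6e-08 from limma) and at least 739-fold in *Sox7* (−/−) cells (adjusted p = 7.6e-09). The *Sox7* (−/−) ES arrays all lay above the *Sox7* (+/−) ES arrays, but the difference of 0.55 did not pass the test (standard error 0.41, adjusted p = 0.30). This standard error is shared by all 4 groups, including XEN-like arrays below background, so it does not measure the spread of the ES arrays alone. The difference passed the adjusted p under 2-fold with normexp (0.48, adjusted p = 7.6e-04) and in the deposited table (0.49, adjusted p = 0.042). With the slide as a block it turned to −0.45 (adjusted p = 0.71), but the XEN-like arrays that set the block were below background.

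*Fgf5*, a ligand that marks ES cells on their way to the epiblast state, differed between the ES groups as well as with Dex. Its signal was 241%, 196% and 220% in *Sox7* (+/−) ES cells and 48.1%, 34.3% and 43.5% in *Sox7* (−/−) ES cells. In XEN-like cells of both genotypes it was 1.42% to 4.18%, well above background on none of the 6 arrays. The fall with Dex was at least 20.0-fold in *Sox7* (+/−) cells (adjusted p = 1.0e-08 from limma) and at least 5.48-fold in *Sox7* (−/−) cells (adjusted p = 6.8e-08). Before Dex it was 5.25-fold lower in *Sox7* (−/−) than in *Sox7* (+/−) cells (log2 difference −2.39, standard error 0.25, adjusted p = 5.6e-05).

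*Fgf8*, a ligand of the primitive streak and of early epiblast, was high in a single group. Its signal was 104%, 95.9% and 105% in *Sox7* (+/−) ES cells and 12.8%, 10.9% and 14.9% after Dex. Without *Sox7* it was 15.2%, 16.0% and 13.3% in ES cells and 22.8%, 7.55% and 9.71% in XEN-like cells. The 3 other groups overlapped, and 2 of 3 arrays in each XEN-like group were well above background. It fell with Dex in *Sox7* (+/−) cells (−3.00, standard error 0.32, adjusted p = 2.0e-05 from limma). In *Sox7* (−/−) cells the difference was −0.32 (standard error 0.32, adjusted p = 0.41). Within slide 2 alone, where the single XEN-like array had the 22.8%, it was 0.62 (adjusted p = 0.028), still under 2-fold. The second *Fgf8* probe, printed above, read 25.2% to 29.8% in *Sox7* (+/−) ES cells and 1.95% to 7.67%, below background, on the other 9 arrays.

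*Fgf15*, the enterohepatic hormone of the adult gut and a ligand of the early embryo, was dim in ES cells and undetected in XEN-like cells. It lay at 39.9% to 43.5% in *Sox7* (+/−) and 28.5% to 34.5% in *Sox7* (−/−) ES cells, groups that did not overlap but differed by less than 2-fold (−0.44, adjusted p = 0.026 from limma). In XEN-like cells it was 1.62% to 2.92% over all 6 arrays. The fall was at least 3.82-fold in *Sox7* (+/−) cells (adjusted p = 4.5e-09) and at least 4.05-fold in *Sox7* (−/−) cells (adjusted p = 2.7e-09).

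*Fgf3* and *Fgf10*, ligands best known from inner ear and limb development, were higher in XEN-like cells. *Fgf3* read 101%, 106% and 98.5% in *Sox7* (+/−) ES cells and 198%, 206% and 404% after Dex. Without *Sox7* it read 60.6%, 65.3% and 56.8% in ES cells and 256%, 266% and 238% in XEN-like cells. The third *Sox7* (+/−) XEN-like array was the highest of all 12, and ES and XEN-like groups did not overlap. *Fgf3* rose by 1.32 in *Sox7* (+/−) cells (limma, standard error 0.22, adjusted p = 4.7e-04) and by 2.06 in *Sox7* (−/−) cells (adjusted p = 1.6e-05). The first call rested on that array: without it the rise was 0.99, just under 2-fold. It was also lost with spike-in scaling (0.84) and in the deposited table (0.82).

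*Fgf10* read 126%, 129% and 119% in *Sox7* (+/−) ES cells and 543%, 546% and 403% after Dex. Without *Sox7* it read 94.8%, 91.8% and 92.7% in ES cells and 534%, 537% and 569% in XEN-like cells. ES and XEN-like groups were well apart in both genotypes. It rose by 1.98 in *Sox7* (+/−) (standard error 0.11, adjusted p = 1.1e-07 from limma) and by 2.55 in *Sox7* (−/−) cells (adjusted p = 1.4e-08).

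**Figure D2:**
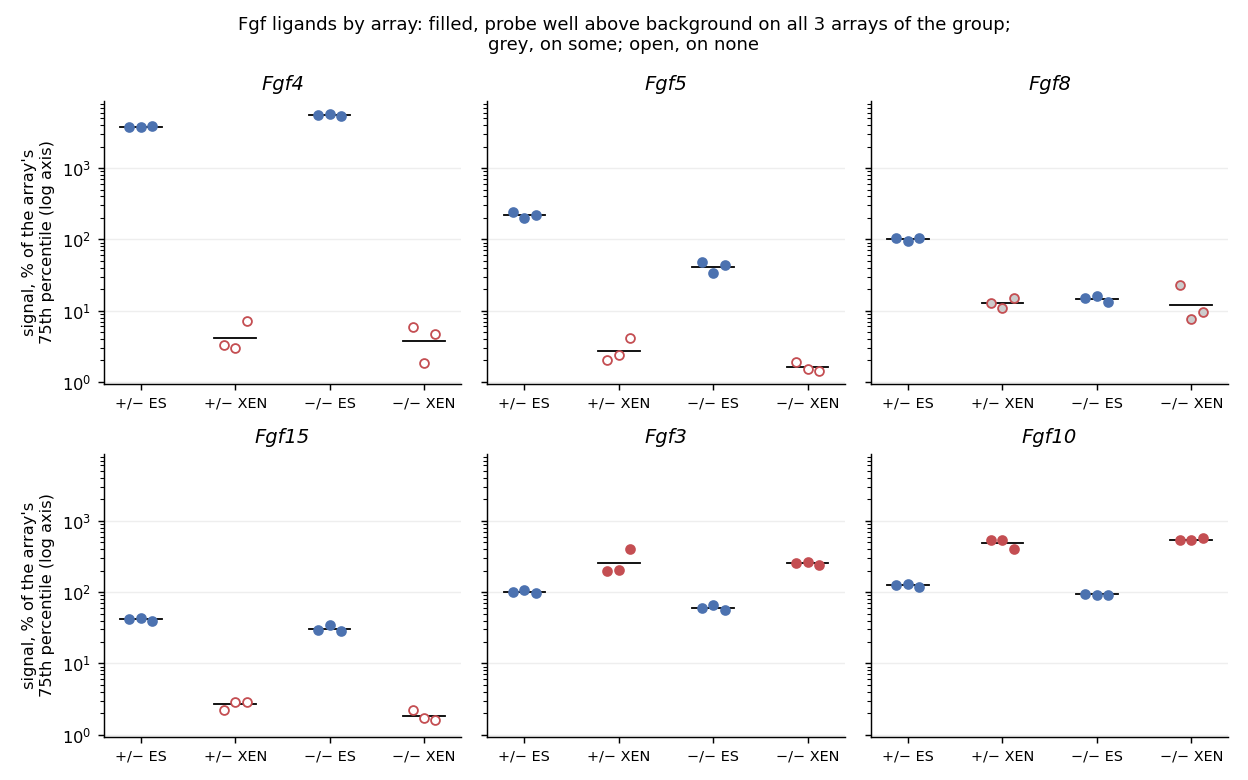
Signal of the brightest probe of each Fgf ligand on each of the 12 arrays, in percent of the array's 75th percentile on a log axis, with black lines at group means of log2 values. Points are filled where all 3 arrays of the group were well above background, grey where some were and open where none was. *Fgf4*, *Fgf5* and *Fgf15* were well above background in ES cells and on no XEN-like array, *Fgf8* was high only in *Sox7* (+/−) ES cells, and *Fgf3* and *Fgf10* were higher in XEN-like cells.

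Among the receptors, *Fgfr1*, the receptor present in both lineages of the blastocyst, was lower after Dex by 2 of its 3 probes. The brightest probe read 1238%, 1236% and 1322% in *Sox7* (+/−) ES cells and 246%, 215% and 213% in *Sox7* (+/−) XEN-like cells. It read 1064%, 1199% and 1104% in *Sox7* (−/−) ES cells and 215%, 182% and 203% in *Sox7* (−/−) XEN-like cells. The fall was almost the same in both genotypes, −2.50 (standard error 0.09, adjusted p = 4.7e-09 from limma) and −2.49 (adjusted p = 3.6e-09), and the 95% interval of their difference ran from −0.27 to 0.28. The dimmest *Fgfr1* probe, printed above, fell by 2.60 and 2.13 on the log2 scale.

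The second *Fgfr1* probe did not follow. It read 75.2% to 99.2% in ES cells and 61.4% to 105% in XEN-like cells, with differences of 0.16 and −0.08 that were not called (adjusted p = 0.39 and 0.68 from limma). Of its 60 bases 60.0% are T, a share that 0.034% of all probes reach, and a run of 46 holds only T and G. Whether this composition bears on its signal was not tested.

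*Fgfr2*, the receptor that marks primitive endoderm precursors in the embryo, was not higher in XEN-like cells by either probe. The brightest probe read 65.4%, 61.5% and 54.2% in *Sox7* (+/−) ES cells and 26.7%, 32.6% and 37.2% in *Sox7* (+/−) XEN-like cells. It read 93.5%, 93.3% and 76.3% in *Sox7* (−/−) ES cells and 42.7%, 59.0% and 50.5% in *Sox7* (−/−) XEN-like cells. ES and XEN-like arrays did not overlap within a genotype. The differences, −0.92 (standard error 0.15, adjusted p = 4.7e-04 from limma) and −0.80 (adjusted p = 0.0010), stayed under 2-fold. The first passed 2-fold with spike-in scaling (−1.40), in the deposited table (−1.02) and without *Sox7* (+/−) XEN-like replicate 3 (−1.03), and the second with the slide as a block (−1.03).

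The second *Fgfr2* probe shares 42 of its 60 bases with the first and gave larger differences. It read 16.7% to 20.8% in *Sox7* (+/−) ES and 30.6% to 34.4% in *Sox7* (−/−) ES cells. In XEN-like cells it read 10.1% to 12.1% in *Sox7* (−/−) cells and 2.47% to 3.24%, below background, in *Sox7* (+/−) cells. By this probe *Fgfr2* fell in both genotypes, at least 1.70-fold in *Sox7* (+/−) cells (adjusted p = 2.4e-08 from limma) and by 1.53 on the log2 scale in *Sox7* (−/−) cells (adjusted p = 1.5e-06). Its order of levels, highest in *Sox7* (−/−) ES and lowest in *Sox7* (+/−) XEN-like cells, was that of the brightest probe.

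*Fgfr3*, the receptor best known as a brake on bone growth, read 248% to 255% in *Sox7* (+/−) ES cells and 1669% to 1833% in *Sox7* (+/−) XEN-like cells. It read 164% to 172% in *Sox7* (−/−) ES cells and 1980% to 2086% in *Sox7* (−/−) XEN-like cells. Replicates lay close together and the 4 groups did not overlap. It rose by 2.78 in *Sox7* (+/−) (standard error 0.06, adjusted p = 2.7e-10 from limma) and by 3.60 in *Sox7* (−/−) cells (adjusted p = 3.7e-11). The probe across a splice junction, printed above, was below background in *Sox7* (−/−) ES cells. By it *Fgfr3* rose by 1.82 in *Sox7* (+/−) cells (adjusted p = 2.2e-04) and at least 12.9-fold in *Sox7* (−/−) cells (adjusted p = 5.7e-07).

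*Fgfr4*, the receptor for Fgf15 in the adult liver, had the same order. It read 169% to 189% in *Sox7* (+/−) ES cells and 803% to 907% in *Sox7* (+/−) XEN-like cells. It read 98.3% to 113% in *Sox7* (−/−) ES cells and 1060% to 1117% in *Sox7* (−/−) XEN-like cells. The lowest and highest groups were both *Sox7* (−/−). It rose by 2.30 in *Sox7* (+/−) (standard error 0.08, adjusted p = 4.7e-09 from limma) and by 3.34 in *Sox7* (−/−) cells (adjusted p = 2.5e-10). The second *Fgfr4* probe rose by 2.05 in *Sox7* (+/−) cells and at least 7.26-fold in *Sox7* (−/−) cells, opposite to the *Fgfr1* probe it aligns with.

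**Figure D3:**
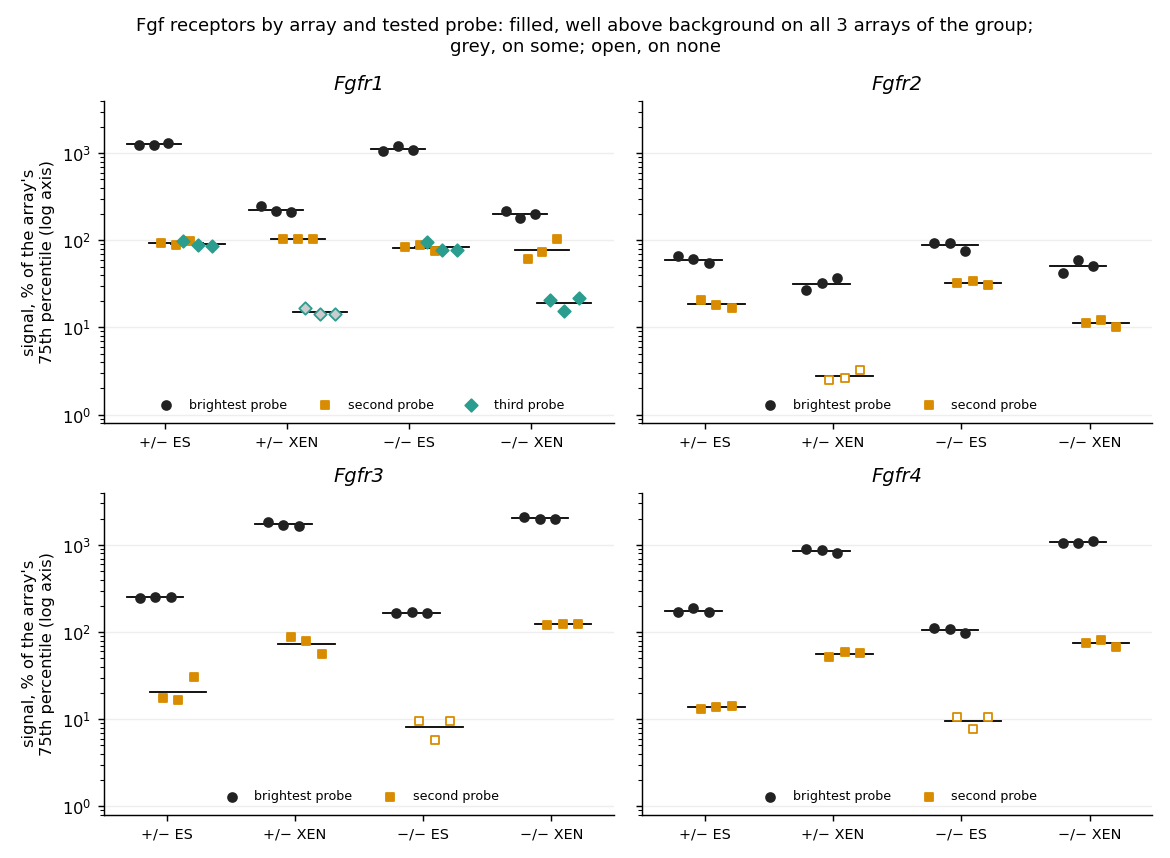
Signal of every tested probe of the Fgf receptors on each of the 12 arrays, in percent of the array's 75th percentile on a log axis, with black lines at group means of log2 values. Points are filled where all 3 arrays of the group were well above background, grey where some were and open where none was. The brightest and the dimmest *Fgfr1* probes were lower in XEN-like cells while the second was not called, both *Fgfr2* probes were lower, and both probes each of *Fgfr3* and *Fgfr4* were higher.

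The *Sox7* (−/−) and *Sox7* (+/−) lines, 1 clone each, were compared in XEN-like cells directly. None of the 10 Fgf genes was called between *Sox7* (−/−) and *Sox7* (+/−) XEN-like cells by limma, where 7.55% of all genes were (4.15% higher, 3.4% lower). At an unadjusted p under 0.05 and at an adjusted p under 0.05 alike, 5 of the 10 passed, by less than 2-fold, where 35.3% of all genes had such an adjusted p at any fold. *Fgfr2* (0.66), *Fgfr4* (0.32) and *Fgfr3* (0.23) were higher in *Sox7* (−/−) cells, with adjusted p = 0.0093, 0.012 and 0.018. *Fgf5* (−0.76) and *Fgf15* (−0.54) were below background in both groups and have no measured difference. The second *Fgfr2* probe was above background on all 3 *Sox7* (−/−) and none of the *Sox7* (+/−) XEN-like arrays and was called (adjusted p = 2.5e-06), at least 1.02-fold higher. Within slide 1, *Fgfr2* differed by 0.78 (limma, adjusted p = 0.018), *Fgfr4* by 0.34 (adjusted p = 0.045), *Fgfr3* by 0.20 (adjusted p = 0.10) and *Fgf8* by −0.58 (adjusted p = 0.046), beside −0.11 over both slides.

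In ES cells before Dex, 2 of the 10 genes were called, *Fgf5* and *Fgf8*, both lower in *Sox7* (−/−) cells, where 8.6% of all genes were called, 1.97% higher and 6.63% lower. *Fgf8* was 6.89-fold lower (log2 difference −2.79, standard error 0.32, adjusted p = 1.2e-04 from limma). A further 6 genes passed the adjusted p at less than 2-fold, 8 of 10 in all, where 46.6% of all genes passed it at any fold. *Fgfr4* (−0.72), *Fgf3* (−0.75), *Fgfr3* (−0.59), *Fgf15* (−0.44) and *Fgf10* (−0.42) had lower values in *Sox7* (−/−) ES cells, and *Fgfr2* (0.54) had higher ones. The second *Fgfr3* probe was called, at least 2.17-fold lower in *Sox7* (−/−) ES cells (adjusted p = 0.0031 from limma), so that the next brightest probes gave 3 called genes.

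All *Sox7* (−/−) ES arrays lay on slide 2 and all *Sox7* (+/−) ES arrays on slide 1, so this comparison can be separated from the slide only through the *Sox7* (−/−) XEN-like arrays. With the slide as a block, *Fgf5* (−2.76, adjusted p = 0.0053) and *Fgf8* (−4.20, adjusted p = 2.0e-05) were still called by limma. For *Fgf5* the arrays that set the block were below background, and for *Fgf8* they were the 22.8% against 7.55% and 9.71%. The smaller differences of *Fgf3* (adjusted p = 0.28), *Fgf10* (adjusted p = 0.27) and *Fgfr2* (adjusted p = 0.054) no longer passed. Other markers also differed between the ES groups. *T*, a primitive streak marker, was at 60.3% to 77.0% in *Sox7* (+/−) and below background in *Sox7* (−/−) ES cells. The summed signal of 4 tested trophectoderm markers of 5 was 643% to 658% and 298% to 325%, and that of 3 tested primitive streak markers of 5 242% to 269% and 143% to 145%. The part of other cells in the *Fgf5* and *Fgf8* differences was not tested.

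Whether Dex acted differently in the 2 genotypes was tested as *Sox7* (−/−) minus *Sox7* (+/−) response. It was called for 3 of the 10 genes, *Fgf5*, *Fgf8* and *Fgfr4*, all positive, where 10.2% of all genes were called, 7.05% positive and 3.16% negative. For *Fgf8* it was 2.68 (standard error 0.46, adjusted p = 0.0022 from limma) and for *Fgfr4* 1.05 (standard error 0.11, adjusted p = 1.3e-04). For *Fgf5* it was 1.63 (standard error 0.35, adjusted p = 0.0073), but both XEN-like groups were below background, so only the ES levels behind it were measured. *Fgfr3* (0.82, adjusted p = 1.0e-04) and *Fgf10* (0.57, adjusted p = 0.020) passed the adjusted p at less than 2-fold. *Fgfr4* lay near the 2-fold threshold. It dropped to 0.99 without *Sox7* (+/−) ES replicate 2, *Sox7* (+/−) XEN-like replicate 3 or *Sox7* (−/−) ES replicate 3. *Fgf3* (0.74, adjusted p = 0.11) was called with 1.07 without *Sox7* (+/−) XEN-like replicate 3. The second probes of *Fgfr2*, *Fgfr3* and *Fgfr4* were each below background in 1 group, so no difference in response is given for them.

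The rest of the pathway was read from lists of genes. Of 14 tested ERK feedback and target genes, 13 fell in *Sox7* (+/−) and 13 in *Sox7* (−/−) cells and none rose, with medians of −2.55 and −3.54. Over all genes, 14.1% fell in each genotype. *Dusp6*, the phosphatase that inactivates ERK, went from between 1078% and 1156% in *Sox7* (+/−) ES cells to between 5.61% and 31.3% after Dex, where 2 of 3 arrays were well above background, a log2 difference of −6.03 (limma, standard error 0.52, adjusted p = 3.6e-06). In *Sox7* (−/−) cells *Dusp6* went from between 1252% and 1300% to between 15.4% and 24.7%, a difference of −6.06. *Etv5*, a transcription factor induced by Fgf signalling, fell in both (−5.75 and −5.23), as did the antagonist *Spry1* (−5.32 and −3.95). These signals were far apart between ES and XEN-like arrays in both genotypes.

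*Myc* was not called in *Sox7* (+/−) cells (−0.71) and fell by 3.36 on the log2 scale in *Sox7* (−/−) cells, and the immediate early gene *Fos* fell at least 2.08-fold in *Sox7* (+/−) cells and was not called in *Sox7* (−/−) cells, where no ES array had it well above background. Of the 14 genes, the difference in response was called positive for 3 and negative for 3, where 7.05% and 3.16% of all genes were. These counts take no account of groups below background. For *Myc* the difference was called at −2.65 (adjusted p = 6.0e-07 from limma). For *Fos* the difference was not measured, since *Sox7* (+/−) XEN-like cells were below background too. Between the XEN-like groups, 2 of the 14 genes were called higher in *Sox7* (−/−) cells and 2 lower, where 4.15% and 3.4% of all genes were. *Spry1* was at 36.3% to 43.6% without *Sox7* and at 11.4% to 12.2%, well above background on 1 of 3 arrays, with it (1.79, adjusted p = 6.1e-07 from limma). *Myc* was at 15.1% to 16.3% and 51.7% to 66.5% (−1.90, adjusted p = 5.8e-07).

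**Figure D4:**
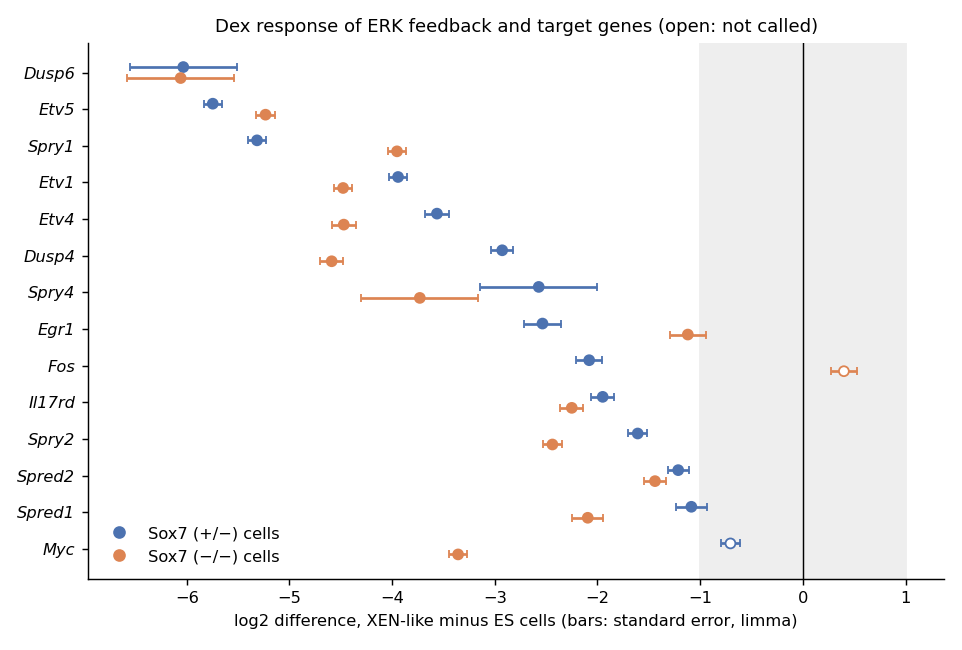
Log2 difference between XEN-like and ES cells for 14 ERK feedback and target genes in both genotypes, with standard errors from limma (3 arrays per group). Filled points are called, open points are not, and the grey band marks changes under 2-fold. In each genotype 13 of the 14 fell, led by *Dusp6* (−6.03 and −6.06), with *Myc* not called in *Sox7* (+/−) and *Fos* not called in *Sox7* (−/−) cells.

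Between receptor and ERK lie adaptors and kinases. Of 17 tested adaptors and Ras-ERK components 3 rose and 1 fell in each genotype, with medians of 0.31 and 0.13, where 25.1% and 28.7% of all genes were called. *Frs2*, the docking protein of the Fgf receptors, rose by 2.26 (standard error 0.07, adjusted p = 2.6e-09 from limma) and 2.40. *Gab1*, a docking protein downstream of it, fell by 1.30 on the log2 scale in *Sox7* (+/−) cells. Between the XEN-like groups *Gab1* was 1.17 higher without *Sox7* (adjusted p = 2.5e-04).

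Of 12 heparan sulfate enzymes, which make or trim the sugar chain that Fgf ligands need to bind their receptors, 5 rose and 1 fell in each genotype. Over all genes 11% rose and 14.1% fell in *Sox7* (+/−) and 14.6% and 14.1% in *Sox7* (−/−) cells. *Hs3st1*, a sulfotransferase, rose by 2.77 (standard error 0.21, adjusted p = 1.2e-06 from limma) and 3.78. *Sulf1*, which removes sulfate groups, fell by 1.83 and 1.33 on the log2 scale. Between the XEN-like groups 1 of the 12 was called, *Hs6st2*, lower in *Sox7* (−/−) cells (−1.54, adjusted p = 0.0059).

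Of 15 tested co-receptors and receptor partners, 4 rose and 3 fell in *Sox7* (+/−) cells, and 6 rose and 1 fell in *Sox7* (−/−) cells, beside 25.1% and 28.7% of all genes called. *Flrt2*, a membrane protein of a family that binds Fgf receptors, rose by 3.99 (limma, standard error 0.28, adjusted p = 7.1e-07) in *Sox7* (+/−) cells and at least 7.95-fold in *Sox7* (−/−) cells. *Fgfbp1*, a secreted carrier of Fgf ligands, fell at least 2.30-fold in *Sox7* (+/−) cells, and the proteoglycan *Gpc1* fell by 2.40 on the log2 scale in *Sox7* (−/−) cells. Between the XEN-like groups *Flrt2* was lower without *Sox7* (−1.21, adjusted p = 0.0086).

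Of 12 other Fgf ligands 5 passed the filter on dim probes, beside 18991 of all 34836 gene names. *Fgf2*, *Fgf7*, *Fgf9*, *Fgf16*, *Fgf17*, *Fgf20* and *Fgf21* did not pass it. *Fgf1* fell at least 3.26-fold in *Sox7* (+/−) cells (adjusted p = 2.3e-07 from limma) and by 2.80 on the log2 scale in *Sox7* (−/−) cells. None of the 5 rose in either genotype, where 11% and 14.6% of all genes did. Between the XEN-like groups *Fgf1* was called higher without *Sox7* (adjusted p = 3.5e-04), well above background on 3 of 3 arrays against 0 of 3. Its bound there was 0.93-fold, so the size of a rise was not measured. *Fgf18* was the second to fall in *Sox7* (−/−) cells (−1.22). *Fgf23*, a hormone of phosphate balance, was lower without *Sox7* in XEN-like cells (−1.04, adjusted p = 0.0066 from limma), just over 2-fold. It read 544% to 734% there and 1054% to 1889% (mean 1337%) in *Sox7* (+/−) XEN-like cells. Whether the call rests on the highest array was not tested. Of 4 intracellular Fgf homologous factors only *Fgf13* was tested, and it fell at least 1.35-fold in *Sox7* (−/−) cells. It was also called lower without *Sox7* in XEN-like cells (adjusted p = 0.0022), but both groups were below background and no fold is given.

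Markers of other states and cell types moved with Dex too, and their part in the Fgf differences was not tested. The fall of *Nanog* was at least 499-fold with 1 copy of *Sox7* and at least 1333-fold with none. Among visceral endoderm markers *Ihh* rose (2.72) and *Amn* fell (−2.08) in *Sox7* (+/−) cells, and *Ttr* rose at least 66.9-fold in *Sox7* (−/−) cells. The summed signal of the 5 tested visceral endoderm markers of 7 was 6279% to 6366% in *Sox7* (+/−) and 21736% to 23516% in *Sox7* (−/−) XEN-like cells. In ES cells this sum was 7424% to 7661% in *Sox7* (+/−) and 3796% to 4430% in *Sox7* (−/−) cells, so it rose with Dex only in the latter. The sum adds different probes, and the brightest weigh most. Taken singly, 2 of the 5 rose and 2 fell in *Sox7* (+/−) cells, where 11% and 14.1% of all genes did. In *Sox7* (−/−) cells all 5 rose, where 14.6% of all genes did. *Ttr* read 31.1% to 38.2% in *Sox7* (+/−) ES cells and 128% to 259% after Dex. *T* fell at least 5.99-fold in *Sox7* (+/−) and *Gsc* at least 2.04-fold in *Sox7* (−/−) cells. In *Sox7* (+/−) cells the neural genes *Sox1* (1.58) and *Zic1* (−1.56) rose and fell, and *Zic1* fell in *Sox7* (−/−) cells (−1.17).

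The trophectoderm gene *Hand1* fell at least 7.11-fold in *Sox7* (+/−) and *Tfap2c* fell (−2.68) in *Sox7* (−/−) cells. The fibroblast markers *Thy1*, at least 16.2-fold in *Sox7* (+/−), and *Col1a1*, at least 24.5-fold in *Sox7* (−/−) cells, fell as well. Between the XEN-like groups *Esrrb* (4.63), *Amn* (3.19), *Eomes* (1.89), *Dab2* (1.07) and *Zic1* (1.01) were higher without *Sox7*, *Cdx2* was called higher with no fold to give, and *Sox7* itself was at least 72.6-fold lower.

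The patterns of the Fgf genes over the 12 arrays were widely shared. Pearson's r with the 3 most similar genes lay between 0.976 and 0.9997 for the 9 Fgf genes called in any comparison. The points are 12 arrays in 4 groups, so r mainly measures a like pattern of group means, and it is given as a description. The order of the arrays can still differ, and Spearman's rho with a named gene was as low as 0.755 (for *Fgfr1*). *Fgf4* was most like *Jam2*, *Crmp1* and *Myl4*, *Fgf15* most like *Col5a3*, *Plxdc1* and *Gpr4*, and *Fgfr1* most like *Tdrd12*, *Gng3* and *Myl4*. *Fgf5* was most like *Slc4a11*, *Anxa8* and *Wisp1*, and *Fgf8* most like *2310007B03Rik*, a probe without a gene symbol and *Nes*. *Fgf3* was most like *Serp1*, *Adam15* and *Pitpnm2*, *Fgf10* like *Jak2* and *Filip1l*, among its 3 most similar, *Fgfr3* most like *Gpr146*, *Slc24a3* and *Gdpd5*, and *Fgfr4* most like *Tmem9b*, *Arhgap29* and *Wwc2*. The number of genes with r above 0.95 was 1395 for *Fgfr3*, 1336 for *Fgf10*, 1292 for *Fgfr4* and 1120 for *Fgf4*, but 271 for *Fgf5* and 62 for *Fgf8*. By Spearman's rho none of the 27 was among the 3 most similar genes.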

How the data were processed

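RNA of 4 groups, 3 arrays each, had been hybridized to one-colour Agilent arrays. The authors deposited intensity values as the output of Agilent Feature Extraction 10.7.3.1, whose processed signal is background-subtracted and not scaled between arrays, and 1 table of linear intensity for all arrays. Every value of that table lay within 0.498% of the array's mean spot signal, so it is not scaled either. Probe positions are on mm9. Each array's processed signals were divided by their 75th percentile before log2, outlier-marked spots (139 to 190 per array) were left out and spots of 1 probe averaged. All 12 arrays were fitted with limma 3.58.1 in R 4.3.3, 1 mean per group, with 1.99 prior degrees of freedom, in 5 comparisons. No spot was saturated, and the number of arrays limits the precision.

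The genes, lists and tests were chosen with earlier results of these data known. From the lists, the gene with the largest called rise and fall in each Dex response and in the XEN-like comparison was named. *Etv5*, *Fos*, *Fgf18* and *Sox2* were added, and *Spry1* and *Myc* in the Dex responses, after their values were seen. For each called Fgf gene the 3 most similar genes were named. Of the genes these rules name, 2 are not reported here. Deviations of same-numbered arrays correlated at −0.051 to 0.126, and no label says what a number shares, so the fit reported has no pairing. The alternatives were normexp (offset 50), quantile, spike-in scaling with 8 controls, the deposited table, other filters, an intensity trend, fewer arrays, replicate and slide blocks, leaving out each array and the next brightest probe. Keeping outlier-marked spots and the recount of the ERK list were added after seeing the data. The fit was tested on simulated data.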

Additional observations from a re-analysis of the deposited data

Results flagged for a closer look

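The Dex response differed between the genotypes, by the test of the difference itself, for 3 of the 10 Fgf genes. For *Fgf8* the difference was 2.68 on the log2 scale (*Sox7* (−/−) minus *Sox7* (+/−) response, adjusted p = 0.0022 from limma). For *Fgf5* it was 1.63 (adjusted p = 0.0073), with both XEN-like groups below background. For *Fgfr4* it was 1.05 (adjusted p = 1.3e-04). The *Fgf8* and *Fgf5* differences go with lower signals in *Sox7* (−/−) ES cells, and that of *Fgfr4* with both a lower signal in ES cells (−0.72) and a higher one in XEN-like cells (0.32). With the slide as a block the differences were 3.62, 1.88 and 1.02.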

How the results depend on the processing

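Under 26 alternatives the Fgf genes kept their call or lack of one in 1176 of 1200 recomputed values, and both that and their direction in 1137. The other 39 of the 1176 were uncalled values of 7 genes that changed sign, the largest being 0.62 (*Fgf8* in *Sox7* (−/−) cells within slide 2). Many of the 1200 values had little room to change. Leaving out an array outside a comparison keeps its differences, as do the replicate block and the intensity trend. Genes with 1 tested probe kept that probe as the next brightest. The only called value that reversed was that of *Fgfr1* in *Sox7* (+/−) cells with the next brightest probe, 0.16. With that probe 1 Fgf gene, *Fgfr2*, was called between the XEN-like groups. The filter on all 12 arrays left 6 of the 10 genes tested. It dropped *Fgf4*, *Fgf5*, *Fgf8* and *Fgf15*, which only ES groups had well above background on all 3 arrays. This filter gave 5 called genes in each Dex response (4 up, 1 down), 0 between ES cells and 1 for the difference between the genotypes. Of 9 tested ERK feedback and target genes 8 were then lower in *Sox7* (+/−) cells. Spike-in scaling gave 5 genes for the difference between the genotypes, adding *Fgf3* (1.14) and *Fgfr3* (1.22). It moved the median of all probes from 0.16 to −0.33 in *Sox7* (+/−) cells, to 0.25 between the XEN-like groups and from −0.09 to 0.31 for the difference. Up and down calls of the Fgf genes in *Sox7* (+/−) cells were then 3 and 6, as in the deposited table.

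Leaving out 1 array gave 9, 8, 0 and 2 called Fgf genes throughout in the Dex responses, XEN-like and ES comparisons, between 2 and 3 for the difference, and between 12 and 13 ERK genes lower in *Sox7* (+/−) cells. Adding the replicate number as a block left 9, 8, 0, 2 and 3 called genes. With the slide as a block *Fgfr2* was also called in *Sox7* (−/−) cells (−1.03). Signal over background limits the size of the falls of *Fgf4*, *Fgf5* and *Fgf15*.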
